A study of Mus musculus with 48 samples.

Results

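The genes of MHC class II antigen presentation were followed across the whole series as 10 members named by symbol, out of 55471 genes counted. The members were Cd74, H2-Aa, H2-Ab1, H2-Eb1, H2-DMa, H2-DMb1, H2-DMb2, H2-Oa, H2-Ob and Ciita, and all 10 had counts in every one of the 48 libraries. The mouse libraries came from whole epididymal white adipose tissue (eWAT), an abdominal fat depot, and from cells isolated from the same depot and labelled as F4/80+, CD11b+ and CD64+ macrophages. The animals were labelled wild type or adipose-specific knockout of Txnip and were fed a control or a ketogenic diet, a very low carbohydrate and high fat feed. In eWAT there were 7 libraries of each genotype label on the control diet and 8 on the ketogenic diet. The macrophage-labelled libraries numbered 6 of each genotype label on the control diet and 3 on the ketogenic diet. The strain and age of the animals and the promoter behind the adipose-specific deletion are not given in the sources used here.

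MHC class II molecules are pairs of an alpha and a beta chain that carry peptides from the endosomes of antigen-presenting cells to the surface, where CD4+ T cells read them. The invariant chain (Cd74) escorts each new pair and blocks its groove, cathepsins cut that chain down, and the DM pair (H2-DMa with H2-DMb1 or H2-DMb2) exchanges the remnant for a peptide, while the DO pair (H2-Oa with H2-Ob) restrains DM, mainly in B cells. The coactivator Ciita has no DNA binding of its own and is recruited to class II promoters by factors on the X and Y boxes. In adipose tissue, macrophages, dendritic cells and B cells are the best known carriers of these molecules.

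The RefSeq promoter table (GRCm38.p6) held windows for 7 members, H2-Oa, H2-DMa, H2-DMb2, H2-DMb1, H2-Ob, H2-Aa and H2-Eb1, all on chromosome 17, with 2 windows for H2-DMa. The stretch around the Y box letters is shown for the 6 members that hold them. Capitals mark the letters searched, which are AAC, any 2 bases and ATGATG for the X box and TGATTGG for the Y box, in the 250 bases before the start. Both strands were searched, all members' matches were on the gene's own strand, and the printed stretches run 5′ to 3′ on that strand. These letters were chosen with the members' sequences in view.
H2-DMb2: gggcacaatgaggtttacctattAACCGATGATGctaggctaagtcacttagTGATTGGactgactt
H2-DMb1: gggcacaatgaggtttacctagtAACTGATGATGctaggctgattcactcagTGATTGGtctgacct
H2-Eb1: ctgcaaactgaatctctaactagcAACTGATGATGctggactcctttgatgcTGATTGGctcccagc
H2-Ob: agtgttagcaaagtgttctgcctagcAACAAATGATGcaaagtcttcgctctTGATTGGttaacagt
H2-Aa: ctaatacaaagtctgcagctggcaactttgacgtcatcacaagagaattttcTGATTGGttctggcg
H2-Oa: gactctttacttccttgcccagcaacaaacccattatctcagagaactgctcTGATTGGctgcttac

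The stretches lie at chr17:34145105-34145171 for H2-DMb2, chr17:34153076-34153142 for H2-DMb1, chr17:34305754-34305820 for H2-Eb1, chr17:34238794-34238860 for H2-Ob and chr17:34092282-34092348 for H2-Oa, all on the plus strand. The stretch of H2-Aa lies at chr17:34287859-34287925 on the minus strand. The X letters were found in 39 of 32851 promoter windows (0.119%) and the Y letters in 2375 (7.23%). The X letters followed by the Y letters with 8 to 30 bases between were found in 4 windows (0.0122%), those of H2-DMb2, H2-DMb1, H2-Ob and H2-Eb1, with 18, 18, 15 and 17 bases between. Neither set of letters was found in the 2 windows of H2-DMa. A match is a description of the letters and no evidence of binding.

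The data behind these genes were raw read counts. Gene counts per library totalled 34.7 to 59.8 M in eWAT on the control diet and 17.4 to 39.0 M on the ketogenic diet, and 36.9 to 59.7 M in the macrophage-labelled libraries. Each tissue and diet carries its own title prefix, so an effect of diet and one of the library set cannot be told apart. Labels were checked first. Txnip, the gene named as deleted, was higher in the eWAT libraries labelled knockout, at 2667 ± 293 CPM (counts scaled to equal library size, mean ± SD, n = 7) against 1654 ± 180 (n = 7) on the control diet (log2 fold change 0.69 ± 0.09 SE, adjusted p = 0.00085), so genotypes are given as labels throughout. The predicted gene Gm11868 separated the labels in 44 libraries, at 0.512 to 1.3 CPM with the wild type label and 3.57 to 6.52 with the knockout label. It went against the label in the other 4 libraries, all macrophage-labelled and on the ketogenic diet, which held 4.42 and 4.46 CPM under the wild type label (replicates 1 and 2) and 1.28 and 0.994 under the knockout label (replicates 2 and 3). The macrophage label also met mixed markers: the summed level of 15 macrophage markers had group medians of 580.3 to 1089 CPM there against 944 to 1720.4 in whole eWAT, and 10 endothelial markers had medians of 9241 to 9855 CPM against 1197 to 1339.6. The sum of 10 adipocyte markers had medians of 8952 to 10296 CPM there, against 26392 to 30342 in whole eWAT.

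Per length of transcript, the genes fell into 3 tiers. In wild-type-labelled control eWAT, Cd74 stood at 403 ± 41.0 CPM per kilobase (mean ± SD, n = 7), and the classical chains followed with H2-Aa at 286 ± 32.5, H2-Ab1 at 144 ± 33.8 and H2-Eb1 at 126 ± 26.6 CPM per kilobase. The DM chains came next, with H2-DMa at 16.0 ± 2.13 and H2-DMb1 at 12.3 ± 1.16 CPM per kilobase. H2-DMb2 at 3.33 ± 0.838, Ciita at 3.05 ± 0.285, H2-Ob at 2.10 ± 0.741 and H2-Oa at 0.695 ± 0.235 CPM per kilobase closed the order. The ranges of mean ± SD overlapped for H2-Ab1 and H2-Eb1, and for H2-DMb2 and Ciita. These pairs were measured in the same libraries and were not compared library by library. H2-Oa rested on 1 to 51 reads in an eWAT library, so its values are the least precise.

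In the macrophage-labelled libraries Cd74 again led and the classical chains followed, in another order. The tissues were normalized separately and made with different kits, so levels set across them are a description. In the control libraries with the wild type label, levels per length were 302 ± 58.5 CPM per kilobase for Cd74, 135 ± 30.7 for H2-Ab1, 101 ± 23.6 for H2-Aa and 59.1 ± 13.3 for H2-Eb1 (n = 6). H2-Aa over H2-Ab1, as a ratio of CPM, was 0.618 to 0.728 in the 18 macrophage-labelled libraries and 1.46 to 3.25 in the 30 eWAT libraries. The kits differ between the tissues and the transcripts differ in GC content (51.0% for H2-Aa and 57.3% for H2-Ab1), and the part of either in this gap was not tested. Ciita stood at 0.724 ± 0.180 CPM per kilobase, below H2-Ob at 1.53 ± 0.461 CPM per kilobase. The related locus H2-Ea-ps, annotated as a pseudogene, had 0 reads in all 30 eWAT libraries, and H2-Eb2 had 0 to 74 reads in any eWAT library. In the macrophage-labelled libraries H2-Ea-ps had reads in every group, and its sum with H2-Eb2 was 0.0216 to 0.471 CPM.

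**Figure D1:**
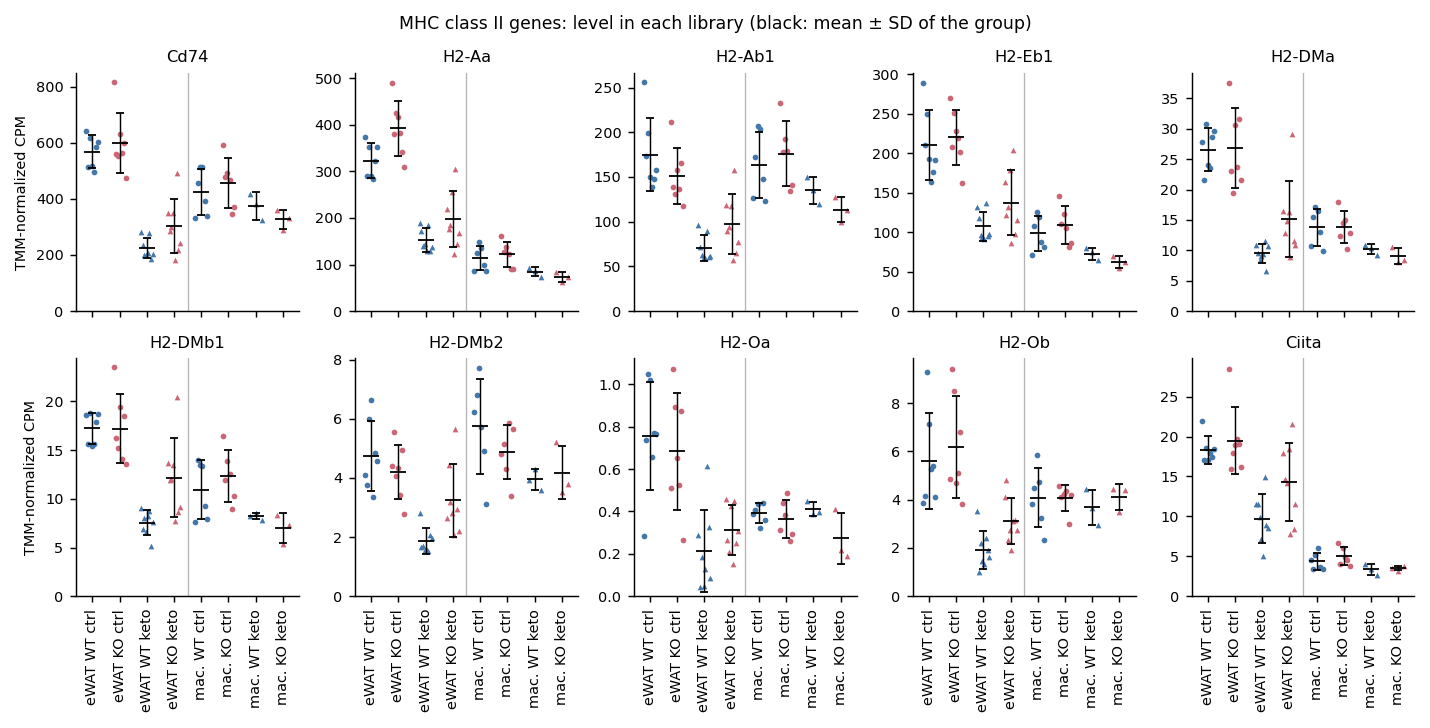
Level of each of the 10 genes in every library, in TMM-normalized CPM on a linear axis from 0, with circles for the control diet, triangles for the ketogenic diet, blue for the wild type label and red for the knockout label, and black bars for mean ± SD. In each panel the mean of a ketogenic eWAT group lies below that of the control group with the same label, although libraries overlap for 9 of 10 genes with the knockout label and for H2-Oa with the wild type label; for Cd74 the wild-type-labelled groups are at 187 to 283 and 497 to 643 CPM.

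In eWAT with the wild type label, all 10 class II genes fell on the ketogenic diet, by fitted log2 fold changes of 0.88 to 1.80 below the control diet. Cd74 ran from 497 to 643 CPM in the 7 control libraries (median 586) and from 187 to 283 CPM in the 8 ketogenic libraries (median 206). The groups did not overlap, and the level was 2.46-fold lower (log2 fold change -1.30 ± 0.09 SE, adjusted p = 2.2e-08). H2-Aa, the alpha chain of I-A, ran from 283 to 373 CPM (median 322) on the control diet and from 128 to 190 CPM (median 142) on the ketogenic diet, which is 2.05-fold lower (log2 -1.04 ± 0.10). Its partner H2-Ab1 ran from 139 to 256 CPM and from 59.9 to 96.6 CPM (log2 -1.27 ± 0.14), and H2-Eb1, the beta chain of I-E, from 164 to 289.6 CPM and from 91.5 to 137 CPM (log2 -0.93 ± 0.12). Every ketogenic library was below every control library for each of these 3 chains.

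The peptide-exchange genes showed the same separation. H2-DMa ran from 21.5 to 30.8 CPM on the control diet (median 27.8) and from 6.61 to 11.6 CPM on the ketogenic diet (median 9.48), a 2.72-fold lower level (log2 -1.44 ± 0.11, adjusted p = 2.7e-08). H2-DMb1 was 2.22-fold lower (log2 -1.15 ± 0.10) and H2-DMb2 2.48-fold lower (log2 -1.31 ± 0.17). These are close copies: 27.2% of the 50-base words of H2-DMb1 and 31.4% of those of H2-DMb2 also occur in other genes, so the split of reads between them is uncertain. H2-Ob fell 2.85-fold (log2 -1.51 ± 0.25, adjusted p = 6.8e-05). H2-Oa ran from 0.286 to 1.05 CPM and from 0.0430 to 0.613 CPM, and was the single member whose groups overlapped (log2 -1.80 ± 0.41, adjusted p = 0.0014). Ciita ran from 17.0 to 21.9 CPM on the control diet and from 5.10 to 14.9 CPM on the ketogenic diet, without overlap (log2 -0.88 ± 0.16, adjusted p = 0.00018).

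Against the background of that comparison, 27.0% of the 15569 genes tested were called lower, and the median log2 fold change was -0.01 over all genes and -1.28 over the 10 members. Groups did not overlap for 9 of the 10, where 13.6% of all genes averaging 2 CPM or more were lower without overlap. Markers of the cells that carry class II moved in the same direction. Called lower were 12 of 15 macrophage markers (median log2 fold change -0.82), 7 of 12 dendritic cell markers (median -0.70) and 11 of 12 B cell markers (median -1.59). Of the mesothelial markers 5 of 8 were called lower too (median -0.77). The summed macrophage markers ran from 1374 to 1819 CPM on the control diet and from 818 to 1160.1 CPM on the ketogenic diet. The dendritic cell sum did not overlap either (91.6 to 112 and 64.0 to 87.9 CPM). The B cell sum did overlap, at 512 to 1101 CPM (median 712) and 301 to 1028 CPM (median 542), as did the mesothelial sum (140.3 to 603 and 95.7 to 397 CPM). The endothelial sum did not fall, at 1092 to 1337 CPM (median 1197) on the control diet and 1157 to 1659.6 CPM (median 1339.6) on the ketogenic diet. No marker on these lists was at 0 in every library of a group. In whole tissue, fewer cells of a type and less RNA per cell cannot be told apart.

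Scaled so that the 15 macrophage markers had the same mean log2 level in every library, 8 of the 10 members were still called lower, where 1.51% of genes were. On that scale the median of all genes moved to 0.66, so it sets the members against macrophage markers and not against the whole tissue. Cd74 was lower by a log2 fold change of -0.63 ± 0.12 (adjusted p = 4.1e-05), H2-DMa by -0.78 ± 0.13 (adjusted p = 3.2e-06) and H2-Ob by -0.83 ± 0.19 (adjusted p = 0.00029). H2-Eb1 at -0.26 ± 0.13 (adjusted p = 0.069) and Ciita at -0.22 ± 0.15 (adjusted p = 0.19) did not pass. Depth moved with diet in the same libraries, from 34.7 to 59.8 M gene counts on the control diet to 17.4 to 25.1 M on the ketogenic diet, and its part was not tested.

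Other genes of the pathway moved in both directions, as did all genes, of which 26.8% were called higher and 27.0% lower. Among 12 genes of class II processing, 6 were lower, among them Ifi30 (a lysosomal thiol reductase that opens disulphide bonds in antigens, log2 -0.77 ± 0.11) and Ctsd (a lysosomal aspartic protease, log2 -0.65 ± 0.09). The 2 that were higher were Sppl2a, the protease that clears the last Cd74 fragment from the membrane (log2 0.49 ± 0.05), and March8, a ubiquitin ligase that acts on class II molecules (log2 0.30 ± 0.05). Of 10 regulators of class II promoters, 5 were higher and 2 lower, including Creb1 (log2 0.52 ± 0.06) and Rfxap, a subunit of the X box factor (log2 0.45 ± 0.07), against Rfxank, another subunit of it (log2 -0.40 ± 0.09). Class I presentation, counted over 14 genes, had 8 lower and 3 higher, with the immunoproteasome subunits Psmb9 (log2 -0.67 ± 0.08) and Psmb10 (log2 -0.53 ± 0.08) and the peptide transporter subunit Tap2 (log2 -0.46 ± 0.07) among the lower. Of 15 tested genes that respond to or signal for interferon gamma, the cytokine that induces Ciita in many cells, 3 were higher and 2 lower, with a median log2 fold change of 0.01.

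With the knockout label, 8 of the 10 members fell on the ketogenic diet in eWAT, where 19.7% of 16483 genes were called lower. Cd74 ran from 476 to 816 CPM on the control diet (median 562) and from 183 to 492 CPM on the ketogenic diet (median 292), with 7 of 8 ketogenic libraries below all control libraries (log2 -0.99 ± 0.17, adjusted p = 0.00032). H2-Aa ran from 309 to 489 CPM and from 122 to 304 CPM (log2 -0.99 ± 0.16, adjusted p = 0.00019). It was the single member whose groups did not overlap, where 6.0% of genes averaging 2 CPM or more were lower without overlap. H2-DMa ran from 19.5 to 37.6 CPM and from 8.95 to 29.1 CPM (log2 -0.82 ± 0.21), and the highest ketogenic library lay inside the control range.

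The DO chains were H2-Oa at log2 -1.08 ± 0.30 (adjusted p = 0.008) and H2-Ob at -0.98 ± 0.21 (adjusted p = 0.0017). H2-DMb2, at 2.77 to 5.54 CPM on the control diet and 2.06 to 5.67 CPM on the ketogenic diet, did not pass (log2 -0.37 ± 0.21, adjusted p = 0.17), nor did Ciita, at 15.9 to 28.5 and 7.74 to 21.6 CPM (log2 -0.44 ± 0.20, adjusted p = 0.087). The median log2 fold change was -0.75 over the members and -0.02 over all genes. Of the markers, 8 of 15 for macrophages, 5 of 12 for dendritic cells, 9 of 12 for B cells and 0 of 8 for mesothelium were called lower. Scaled to the macrophage markers, 6 members were called lower, where 2.38% of genes were and the median of all genes moved to 0.34. The 6 were Cd74, H2-Aa, H2-Eb1, H2-DMa, H2-Oa and H2-Ob. On the scale set by Adgre1, Csf1r, Mertk and Fcgr1, 3 were called, Cd74, H2-Aa and H2-Ob, where 1.90% of genes were. Without control replicate 4, or ketogenic replicate 2 or 5, the 15-marker scale called 4 members, Cd74, H2-Aa, H2-DMa and H2-Ob.

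Pathway genes around the members were called in both directions with the knockout label too, where 19.8% of all genes were called higher. Processing genes were 4 lower and 3 higher of 12, led by Ctsd (log2 -0.83 ± 0.11) and Sppl2a (log2 0.27 ± 0.05). Regulators were 5 higher and 3 lower of 10, with Creb1 at log2 0.38 ± 0.06 and Rfxank at -0.35 ± 0.08. Class I genes were 2 higher and 2 lower of 14. The costimulatory receptor Cd40, which antigen-presenting cells use to receive T cell help, was lower with both labels, at log2 -0.93 ± 0.20 with the knockout label and -0.97 ± 0.21 with the wild type label.

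The diet difference itself was compared between labels in a fit of all 4 eWAT groups. H2-DMb2 (interaction log2 0.99 ± 0.27, adjusted p = 0.022) and H2-DMb1 (0.70 ± 0.22, adjusted p = 0.042) were called, both with a diet difference nearer 0 with the knockout label, where 6.96% of 17140 genes had an interaction in that direction. The other 8 members did not pass, with H2-Ab1 at 0.68 ± 0.25 (adjusted p = 0.09), H2-DMa at 0.67 ± 0.25 (adjusted p = 0.1), Cd74 at 0.35 ± 0.21 (adjusted p = 0.31) and H2-Aa at 0.09 ± 0.20 (adjusted p = 0.84). With an offset for the GC content of each gene edgeR called 0 members, where 0.910% of genes were called, with 2 at an unadjusted p under 0.05 (H2-DMb2 0.89 ± 0.27, adjusted p = 0.085). Scaled to the macrophage markers it called 0, where 0.216% of genes were, with 1 at an unadjusted p under 0.05. On that scale H2-DMb2 was called without wild-type-labelled ketogenic replicate 1 or knockout-labelled ketogenic replicate 5. Without the macrophage scale, DESeq2's Wald test (its own size factors) and limma-voom (TMM) each called 2 members, and edgeR with DESeq2 size factors called 1. The shares of all genes called in these fits are not given here. In the same interaction 3 of 15 macrophage markers were called, the complement genes C1qa (0.88 ± 0.19), C1qb (0.68 ± 0.15) and C1qc (0.86 ± 0.19), and the processing gene Ifi30 (0.54 ± 0.16). H2-DMb2 was called in each of the 30 fits that left out 1 library. It was the single call without wild-type-labelled control replicates 1, 3, 6 or 7, knockout-labelled control replicates 2, 3, 5 or 7, wild-type-labelled ketogenic replicates 2, 4, 7 or 8, or knockout-labelled ketogenic replicates 1, 2, 3, 4 or 6. There were 4 calls without knockout-labelled control replicate 1 and 3 without knockout-labelled ketogenic replicate 5.

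The genotype labels were compared within each diet. On the control diet edgeR called 0 of the 10 members in eWAT, where 4.41% of 16746 genes were called higher and 11.6% lower. H2-Aa came nearest, at 283 to 373 CPM with the wild type label (median 322) and 309 to 489 CPM with the knockout label (median 382), with 5 of 7 libraries labelled knockout above all of the others (log2 0.28 ± 0.10, adjusted p = 0.056). It was the one member with an unadjusted p under 0.05. DESeq2's Wald test called it (adjusted p = 0.025), as did limma-voom (adjusted p = 0.043), as the 1 member called by each, where they called 8.43% and 5.71% of genes higher. Without wild-type-labelled replicate 1 or 7, or without knockout-labelled replicate 6 or 7, edgeR called H2-Aa alone as well. Its partner H2-Ab1 was at log2 -0.20 ± 0.15, Cd74 at 0.08 ± 0.10, H2-DMa at 0.02 ± 0.14 and Ciita at 0.09 ± 0.11. The members' median log2 fold change was 0.04, against 0.01 for all genes. With the GC offset Cd74 was the 1 member called, at 0.35 ± 0.10 (adjusted p = 0.041), and H2-Aa stood at 0.21 ± 0.10 (adjusted p = 0.2).

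In the same comparison other antigen-presenting genes did pass. The dendritic cell genes Clec9a, a receptor for dead cells (log2 0.63 ± 0.19), and Xcr1, a chemokine receptor (log2 0.69 ± 0.22), were higher with the knockout label, as 2 of 12 on that list. Tap2 (log2 -0.73 ± 0.11), Tap1 (log2 -0.37 ± 0.09) and Psmb10 (log2 -0.63 ± 0.16) of the class I list were lower and Erap1, which trims peptides for class I, was higher (log2 0.19 ± 0.05). Of the macrophage markers, C1qa, C1qb and C1qc were lower and Lyz2 was higher, while the summed list overlapped between the labels (1374 to 1819 CPM and 1342 to 2037 CPM).

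On the ketogenic diet, H2-DMb1 and H2-DMb2 rose with the knockout label in eWAT, as 2 of the 9 members tested, where 1.48% of 15225 genes were called higher. H2-DMb1 ran from 5.14 to 9.09 CPM with the wild type label (median 7.86) and from 7.69 to 20.5 CPM with the knockout label (median 12). In 6 of 8 libraries labelled knockout it lay above all of the others (log2 0.70 ± 0.18, adjusted p = 0.039). H2-DMb2 ran from 1.53 to 2.82 CPM (median 1.69) and from 2.06 to 5.67 CPM (median 2.88), and all 8 libraries labelled knockout were above the median of the others (log2 0.82 ± 0.21, adjusted p = 0.039). H2-DMa was at 0.68 ± 0.20 (adjusted p = 0.069), H2-Ob at 0.70 ± 0.23 (adjusted p = 0.097), Ciita at 0.57 ± 0.23 (adjusted p = 0.18) and Cd74 at 0.43 ± 0.17 (adjusted p = 0.17). All 9 tested members had an unadjusted p under 0.05 and a fold change above 0, with a median of 0.57. H2-Oa, with 1 to 18 reads a library, did not pass the low-count filter. With the replicate number as a block, a pairing that was not established, 6 members were called higher, where 5.09% of genes were; the 4 added were H2-Ab1, H2-DMa, H2-Ob and Ciita.

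The calls lay near the threshold. With 1 library left out the log2 fold change of H2-DMb2 stayed between 0.64 and 0.92 (adjusted p 0.018 to 0.082) and that of H2-DMb1 between 0.55 and 0.77 (adjusted p 0.019 to 0.072). No member was called without wild-type-labelled replicates 2, 3, 4, 5, 7 or 8 or knockout-labelled replicates 2, 3, 4 or 6, and 1 was called without wild-type-labelled replicate 6 or knockout-labelled replicate 1. The count was 3 without wild-type-labelled replicate 1 or knockout-labelled replicate 5. Libraries labelled knockout were deeper, at 21.0 to 39.0 M gene counts against 17.4 to 25.1 M, and the highest in H2-DMb1 and H2-DMb2, replicate 6, was also the deepest and the highest in summed macrophage markers (1856 CPM).

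The summed macrophage markers overlapped between the labels. The sum ran from 818 to 1160.1 CPM with the wild type label and from 919 to 1856 CPM with the knockout label, and 0 of 15 were called, with a median log2 fold change of 0.40. Scaled to these markers 0 members were called, where 0.525% of genes were called higher and the median of all genes was -0.37. Of the 9 members 2 had an unadjusted p under 0.05 on that scale. H2-DMb2 stood at 0.40 ± 0.18 (adjusted p = 0.057) and H2-DMb1 at 0.27 ± 0.13 (adjusted p = 0.067), while Cd74 stood at 0.01 ± 0.13 and H2-Aa at -0.04 ± 0.13. On the same scale 2 members were called without wild-type-labelled replicate 1 or knockout-labelled replicate 5, and 1 without wild-type-labelled replicate 5 or knockout-labelled replicate 8. Set by the 4 markers Adgre1, Csf1r, Mertk and Fcgr1 alone, H2-DMb2 (0.46 ± 0.19, adjusted p = 0.04) and H2-DMb1 (0.33 ± 0.14, adjusted p = 0.042) were called, where 0.663% of genes were called higher. Of the pathway lists, 2 of 12 processing genes were higher on the TMM scale, Ifi30 (log2 0.60 ± 0.12) and Ctss, the cathepsin that cuts Cd74 (log2 0.69 ± 0.18). The costimulatory ligand Cd80 (log2 0.77 ± 0.20) and the dendritic cell growth factor receptor Flt3 (log2 0.89 ± 0.24) were higher as well.

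**Figure D2:**
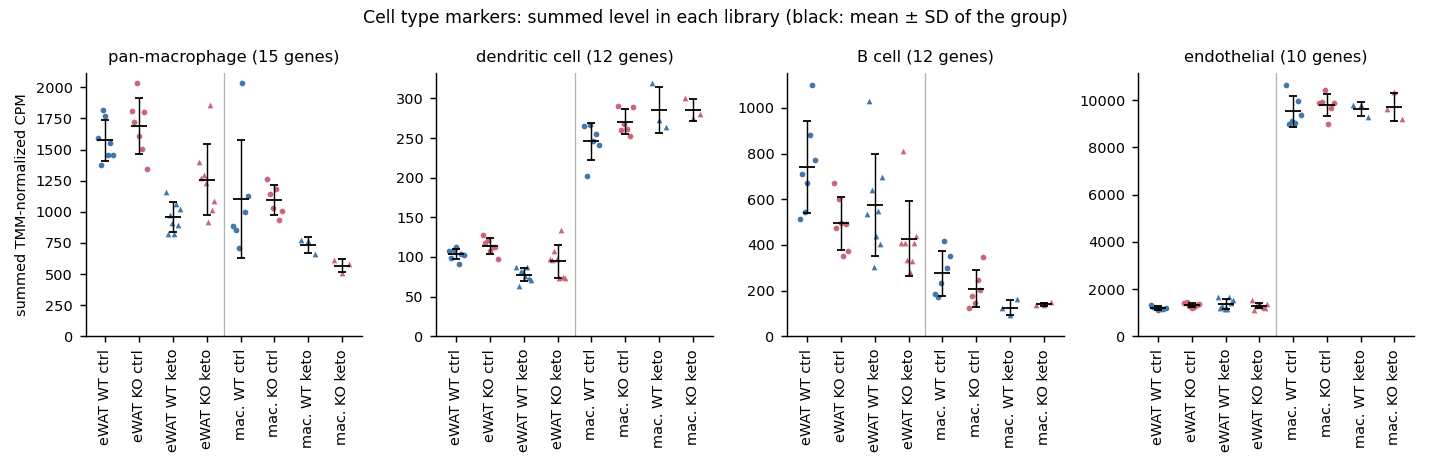
Summed TMM-normalized CPM of 4 marker lists in every library, on linear axes from 0, with circles for the control diet, triangles for the ketogenic diet, blue for the wild type label, red for the knockout label and black bars for mean ± SD. The endothelial sums lie at 8964 to 10656 CPM in the macrophage-labelled libraries and at 1092 to 1659.6 CPM in eWAT, while the macrophage sums overlap between the tissues.

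In the macrophage-labelled libraries no member was called between genotype labels. On the control diet edgeR, DESeq2 and limma-voom each called 0 of 10, and 0 had an unadjusted p under 0.05, where edgeR called 0.0293% of 17067 genes higher and 0.0527% lower. Cd74 ran from 332 to 515 CPM with the wild type label (median 424) and from 347 to 591 CPM with the knockout label (median 473), at log2 0.11 ± 0.15 (adjusted p = 0.76). The members' fitted log2 fold changes lay between -0.24 (H2-DMb2) and 0.20 (Ciita). On the ketogenic diet, with 3 libraries a label and 4 of the 6 against their label by Gm11868, the same tools called 0 of 10, and edgeR called 0% of genes in either direction, with 1 member at an unadjusted p under 0.05. Cd74 was at 419, 382 and 323 CPM with the wild type label and 359, 290 and 332 CPM with the knockout label.

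Between diets, calls were made with the knockout label. H2-Aa, H2-Ab1, H2-Eb1, H2-DMa and H2-DMb1 fell on the ketogenic diet, as 5 of 10 members, where 9.57% of 17693 genes were called lower. H2-Aa was at 84.5, 63.1 and 73.3 CPM on the ketogenic diet and ran from 91.1 to 162 CPM on the control diet (log2 -0.73 ± 0.20, adjusted p = 0.033). H2-Eb1 was at 69.6, 54.2 and 62.7 CPM against 81.6 to 146 CPM (log2 -0.81 ± 0.19, adjusted p = 0.017). H2-DMb1 was at 8.35, 5.32 and 7.36 CPM against 8.96 to 16.4 CPM (log2 -0.82 ± 0.20, adjusted p = 0.015). None of these 3 overlapped between diets. The same held for H2-Ab1 and, though it was not called, Ciita, so that 5 members were lower without overlap, where 12.3% of genes averaging 2 CPM or more were. H2-Ob was the member that moved least (log2 0.01 ± 0.15, adjusted p = 0.98).

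These calls include libraries whose label is in doubt. Without the 4 such libraries edgeR called 0 of 10, and 0 had an unadjusted p under 0.05, where 2.15% of genes were, and the comparison then held 1 ketogenic library (H2-Aa -0.53 ± 0.33, H2-DMb1 -0.56 ± 0.28), assumed to vary like the control group. There were 0 calls without knockout-labelled ketogenic replicate 2, 1 without replicate 3, 3 without replicate 1, and 3 without knockout-labelled control replicates 2, 3 or 4. With both labels together 7 members were lower, where 15.9% of genes were, and 0 without the 4 libraries, where 2.27% were, with 4 at an unadjusted p under 0.05. DESeq2 and limma-voom were not run without those libraries. The macrophage markers fell with the knockout label in the same comparison, 14 of 15 of them with a median log2 fold change of -0.94 against -0.56 for the members, and their sum ran from 935 to 1262 CPM on the control diet and from 509 to 613 CPM on the ketogenic diet. Summed T cell markers ran from 98.5 to 128 CPM and from 65.9 to 88.5 CPM, although 6 of 12 were called higher and 1 lower, where 10.7% of genes were called higher. Of the adipocyte markers 6 of 10 were called higher. Of the dendritic cell markers 5 of 12 were called lower and 2 higher, while their sum ran from 253 to 291 CPM and from 275 to 301 CPM. The part of these cells in the members' difference was not tested. Processing genes fell too, 7 of 12, with Ctss at log2 -1.04 ± 0.16 and the endosomal protease Lgmn at -0.37 ± 0.05.

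With the wild type label edgeR called 0 of 10 members between diets, where 1.74% of 17687 genes were called higher and 1.79% lower, and 3 members had an unadjusted p under 0.05, all lower. DESeq2 and limma-voom called 0 as well. H2-Aa was at 93.4, 86.8 and 74.2 CPM against 86.6 to 148 CPM (log2 -0.43 ± 0.19, adjusted p = 0.2), and the diets overlapped. The difference between the labels' diet effects was not detectable: 0 members had an interaction by the 3 tools, 0 had an unadjusted p under 0.05, and edgeR called 0% of genes. The members' interaction values had a median of -0.30. The ketogenic libraries in these comparisons include the 4 that went against their label by Gm11868, so neither result can be read by genotype.

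How the members varied from library to library within a group was described with deviations of log2 CPM from the group means, which share library depth and composition. Over the 30 eWAT libraries Cd74 and H2-Aa had a Pearson correlation of 0.95, H2-Aa and H2-Ab1 0.89, H2-Aa and Ciita 0.84, and H2-Aa and H2-Ob 0.23. The DO chains went with each other (H2-Oa and H2-Ob 0.73). Against the mean of the B cell markers, H2-Ob stood at 0.85, H2-DMb2 at 0.54 and H2-Oa at 0.51, while the classical chains and Cd74 lay between -0.07 and -0.01. Against the dendritic cell markers the order turned, with Cd74 at 0.80, H2-Aa at 0.78, H2-DMb2 at 0.64, H2-Oa at 0.52 and H2-Ob at 0.48. Against the macrophage markers H2-DMb2 stood at 0.73, H2-Ob at 0.63 and H2-Oa at 0.52, with the classical chains and Cd74 between 0.59 and 0.64. H2-DMb2 was thus higher against the macrophage than against the B cell markers, and H2-Oa was nearly level across these lists. H2-DMb1 (-0.15) and H2-DMb2 (0.54) differed in their relation to the B cell markers although their sequences are close.

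Over the 18 macrophage-labelled libraries the classical chains moved as a block, with Cd74 and H2-Aa at 0.99 and H2-Aa and H2-Ab1 at 0.99. H2-Ob again stood highest against the B cell markers (0.82), followed by H2-DMb2 (0.78). Cd74 and the classical chains lay between 0.49 and 0.60 there, so the separation seen in eWAT was not repeated. Cd74 stood at 0.73 against the dendritic cell markers, 0.64 against the T cell markers and 0.54 against the B cell markers. It stood at 0.48 against the interferon gamma genes, 0.34 against the macrophage markers and -0.18 against the endothelial markers. By a fixed rule, the 5 genes most like the mean of Cd74 and the 3 classical chains in eWAT were Themis2 (0.85), P3h2 (0.84), Cmtm7 (0.81), Sash3 (0.80) and Tnfaip2 (0.79), of 12503 genes averaging 2 CPM or more. In the macrophage-labelled libraries they were Samsn1 (0.88), Slfn2 (0.88), Ly86 (0.86), Plbd1 (0.84) and Larp1 (0.82), of 12359 genes.

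**Figure D3:**
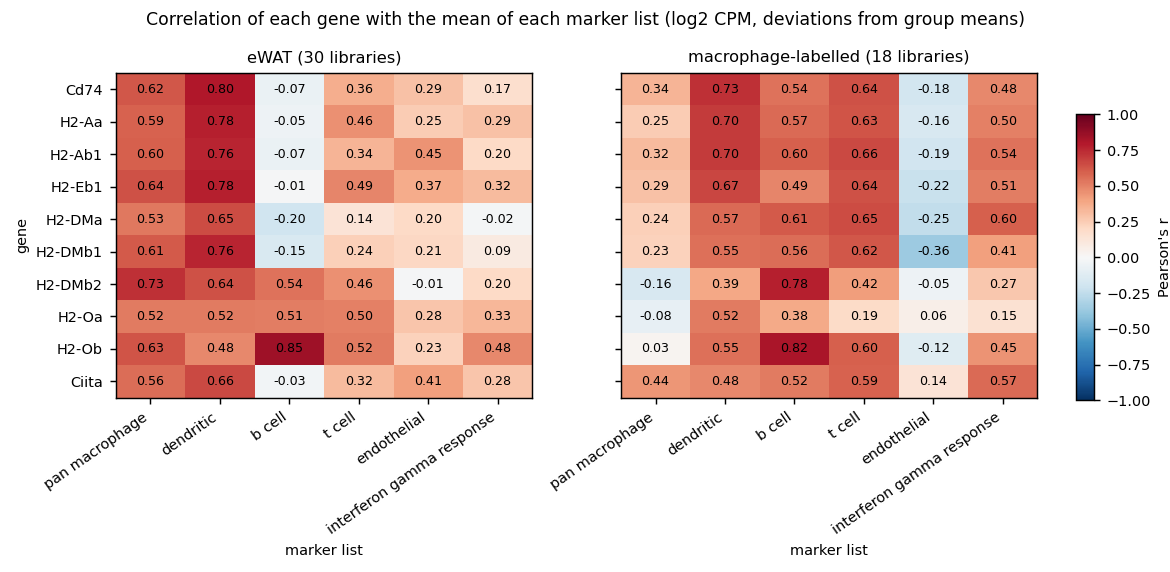
Pearson correlation of each gene with the mean of 6 marker lists, over deviations of log2 CPM from group means, in 30 eWAT and 18 macrophage-labelled libraries, with red for positive and blue for negative values. In eWAT the B cell column separates H2-Ob (0.85), H2-DMb2 (0.54) and H2-Oa (0.51) from the other genes, which lie between -0.20 and -0.01. In the macrophage column H2-DMb2 is at 0.73 and H2-Oa at 0.52.

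Because the members moved by unequal amounts, 6 ratios between them were tested in the 8 comparisons of groups of libraries with a two-sided exact permutation test, with adjusted p-values over the 48 tests. The ratios were chosen after the levels had been seen. The ratio of H2-DMa to H2-DMb1, the DM pair, was lower on the ketogenic diet in eWAT with the wild type label, at 1.04 to 1.40 against 1.38 to 1.64 (difference of mean log2 ratio -0.28, exact permutation test, adjusted p = 0.012). It was lower with the knockout label too, at 1.07 to 1.42 against 1.28 to 1.71 (-0.34, exact permutation test, adjusted p = 0.012). Ciita over Cd74 was higher on the ketogenic diet with the knockout label, at 0.0389 to 0.0523 against 0.0284 to 0.0350, without overlap (0.53, exact permutation test, adjusted p = 0.0075). Within the wild type label, H2-Aa over Cd74 was higher on the ketogenic than on the control diet (0.26, exact permutation test, adjusted p = 0.0075). On the control diet H2-Aa over H2-Ab1 was higher with the knockout label, at 2.06 to 3.25 against 1.46 to 2.23 (0.48, exact permutation test, adjusted p = 0.014). With the GC offset the fitted changes of that pair were 0.21 ± 0.10 for H2-Aa and 0.12 ± 0.12 for H2-Ab1. H2-Aa over Cd74 was higher with the knockout label on the control diet (0.21, exact permutation test, adjusted p = 0.012). With the GC offset, however, the fitted change of Cd74 (0.35 ± 0.10) was above that of H2-Aa (0.21 ± 0.10), the other order. The ratio itself was not tested with the offset. H2-DMa over H2-Aa was lower on the ketogenic diet with the wild type label (-0.40) and H2-Aa over H2-Ab1 lower on it with the knockout label (-0.35), each at an exact permutation adjusted p = 0.012. All ratios were taken from CPM with no GC offset. GC content is 51.0% for H2-Aa and 56.6% for Cd74 and for H2-DMa, and its part in the diet ratios was not tested. In the macrophage-labelled libraries no ratio passed, and the 3-against-3 comparison cannot give an exact p below 0.1. Between diets, the 84 splits there cannot give an exact p below 0.012. H2-Aa over Cd74 reached that limit, lower on the ketogenic diet without overlap with both labels (-0.23 each, exact permutation test, adjusted p = 0.052). H2-Aa over H2-Ab1 reached it with the wild type label (-0.15, exact permutation test, adjusted p = 0.052).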

How the data were processed

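Values as deposited were raw counts of reads, 1 table a library. Per the submitters' processing notes, the tools were STAR 2.7.8a and Trim Galore 0.6.0, with mm10 as the build; no release of the annotation is named there. Per the labels, eWAT libraries used a stranded mRNA kit and 500 ng of RNA, and macrophage-labelled libraries an ultra-low-input kit and 1 to 5 ng. The stranded column was used for eWAT and the unstranded one for the other libraries, where genes on opposite strands cannot be told apart: H2-DMa overlaps Brd2, H2-Eb1 Gm20513, H2-Oa BC051537 and Ciita Dexi. Rows that name no gene held 19.4% to 32.9% of reads and were left out. Of the gene IDs, 55230 matched GENCODE vM21 (GRCm38), the source of names, lengths and GC content.

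Each comparison was fitted over all genes in R 4.3.3 with edgeR 4.0.16 (filterByExpr, TMM, robust quasi-likelihood test, Benjamini-Hochberg adjustment, calls at an adjusted p under 0.05, two-sided). The SE is the absolute log2 fold change divided by the square root of F. CPM was scaled by TMM within each tissue. Levels per kilobase use the principal transcript. Correlations use log2(CPM + 0.1). Alternatives were DESeq2 1.42.0, limma-voom (limma 3.58.1), no low-count filter, an offset for GC content, all 4 groups in one fit, the replicate block, the unstranded column, both genotype labels together, a scale set by macrophage markers, and 1 library left out at a time. Fits without the 4 libraries of doubtful label, the ratios and the endothelial list were added after seeing the data. The fit was tested on simulated data. Members and lists were chosen with earlier results of these data known. All members are named, and of each list at most the 4 called genes with the smallest p, besides markers.

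Whether replicate numbers pair the libraries of the 2 labels was checked after the fits with and without a block were known. In eWAT on the ketogenic diet the criterion, a correlation of deviations over 0.1 in every pair, was met in 3 of 5 ways of choosing genes and pseudocount, so pairing was not established and the fits without the block are reported. The labels do not say that libraries come from separate animals, so p-values measure the spread between libraries.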

Additional observations from a re-analysis of the deposited data

Results flagged for a closer look

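In eWAT labelled knockout on the ketogenic diet, replicate 6 stood far above the other 7 libraries in 2 of the 3 DM genes, with H2-DMa at 29.1 CPM (others 8.95 to 16.5) and H2-DMb1 at 20.5 CPM (others 7.69 to 13.7). In the wild-type-labelled group of the same diet, replicate 1 held 2.82 CPM of H2-DMb2 (others 1.53 to 2.08) and was the shallowest library, at 17.4 M gene counts.

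Ciita was highest in replicate 1 of both eWAT control groups, at 21.9 CPM with the wild type label (others 17.0 to 18.6) and 28.5 CPM with the knockout label (others 15.9 to 19.7). H2-Ob was lowest in macrophage-labelled, knockout-labelled control replicate 5, at 2.99 CPM (others 4.12 to 4.55). Of 60 groups of values examined this way 6 held such a library, and chance alone gives about 1 in 20.

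The diet difference in eWAT differed between genotype labels for H2-DMb2 (interaction log2 0.99) and H2-DMb1 (0.70), by the test of the interaction itself.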

How the results depend on the processing

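No member called in a fit changed sign under the alternatives run. The ratio of H2-Aa to Cd74 between labels on the control diet passed its test without a GC offset. With the offset the fitted changes of these genes had the other order, and the ratio was not tested with it. In eWAT on the control diet 1 member was called higher between labels with DESeq2's Wald test, with limma-voom and with the GC offset, and none in the reported fit. On the ketogenic diet 2 members were called in the reported fit, 4 with DESeq2's Wald test, 3 with all 4 groups in one fit and 1 with no low-count filter. The eWAT interaction went from 2 to 1 with DESeq2 size factors and with no low-count filter, and to 0 with the GC offset. In macrophage-labelled libraries with the knockout label the diet calls went from 5 to 7 with DESeq2's Wald test, to 2 with limma-voom and with no low-count filter, and to 0 without the 4 libraries of doubtful label, separately or with both labels together. With the wild type label they went from 0 to 7 with both labels together. Scaled to 4 macrophage markers in place of 15, 2 members were called between labels on the ketogenic diet and 3 between diets with the knockout label, where the 15 gave 0 and 6. A count given for a setting without its share of all genes shows how the calls moved, and is no result about the members.

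With 1 library left out at a time, calls between labels in eWAT ranged from 0 to 1 on the control diet and from 0 to 3 on the ketogenic diet. Between diets they ranged from 9 to 10 with the wild type label and from 7 to 10 with the knockout label. The interaction gave 1 to 4, and the macrophage-labelled diet calls with the knockout label 0 to 7; the other macrophage-labelled comparisons gave 0 throughout. Scaled to the macrophage markers the ranges were 0 to 0, 0 to 2, 8 to 9, 4 to 7 and 0 to 1 in the same order. With the replicate number as a block, 6 members were called higher between labels in eWAT on the ketogenic diet, against 2 without it, where the share of all genes called higher was 5.09% against 1.48%, and 0 in eWAT on the control diet and in both macrophage-labelled label comparisons. Whether these numbers pair libraries was checked with those counts known, in 5 ways (a mean of at least 0.5, 1, 2 or 10 CPM with a pseudocount of 0.1, and 2 CPM with a pseudocount of 1). On the ketogenic diet all 8 pairs were over 0.1 in 3 of the 5, and 7 of 8 at 0.5 and at 10 CPM, while 5 of 8 or 4 of 8 libraries correlated best with their own number. The criterion was met in 0 of 5 on the control diet in either tissue, and in 1 of 5 for the macrophage-labelled ketogenic libraries. The labels do not say what the numbers mark, so the block counts are no more than an alternative. Except where a fit holds fewer libraries, the cause was not tested. H2-Oa, at 1 to 51 reads in an eWAT library, is limited by depth.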
